A study of Mus musculus with 20 samples.

Results

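The 50 genes described here, 24 of DNA replication and 26 of mitosis, were followed in the RNA of mouse LSK and MEP cells. Members were listed gene symbols whose FPKM (fragments scaled by transcript length and by the number of mapped fragments) averaged 1 or more across the 10 libraries of their cell type. All 50 listed genes passed in both cell types, out of 24315 genes per table, of which 11952 passed in LSK and 10933 in MEP. LSK (Lin-Sca1+Kit+) are the stem and multipotent progenitor cells of the bone marrow, and MEP (Lin-Sca1-Kit+CD34-, FcγRII/III low or negative) are progenitors of red cells and megakaryocytes. Both were sorted from bone marrow of C57BL/6 mice of 4 genotypes: wild type (WT, 3 mice), Dnmt3a-/- (3 mice), Bcor-/- (2 libraries) and Bcor-/-Dnmt3a-/- (2 mice), and each mouse, or pool of mice, gave an LSK and a MEP library. Bcor encodes a subunit of a Polycomb repressive complex and Dnmt3a a de novo DNA methyltransferase. Both were deleted through Mx1-Cre, a recombinase that interferon induces and that pIpC injection switches on in blood stem cells and other interferon-responsive cells, and the Bcor deletion removes exons of the gene. The labels name 2 mice for 1 Bcor-/- library of each cell type and give no ages, and the study describes the Bcor-/-Dnmt3a-/- mice as leukemic, with acute erythroid leukemia. The comparisons ask how the replication and the mitosis programme differ between each mutant genotype and WT.

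DNA replication starts when the origin recognition complex, Cdc6 and Cdt1 load the ring-shaped Mcm2 to Mcm7 helicase on DNA in G1 phase. Cyclin E with its kinase, Mcm10, Cdc45 and the GINS complex then start the helicase, and DNA polymerases held by the sliding clamp Pcna copy the strands. Mitosis is driven by cyclin B with Cdk1 and by the Aurora and Polo kinases, is held by the spindle checkpoint until chromosomes are attached, and ends when the anaphase-promoting complex (APC/C) marks cyclin B and securin for destruction. RNA of the first group peaks around entry into S phase, where E2F factors act on its promoters, and RNA of the second peaks in G2 and M phase, where the DREAM and B-Myb-MuvB-FoxM1 complexes act through a promoter element called CHR, often beside CCAAT boxes bound by NF-Y. Early progenitors of the red cell line divide fast, while most long-term stem cells rest. In bulk RNA a lower share of dividing cells and less of a transcript per dividing cell cannot be told apart.

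The promoters of both groups are described first, for the letters they hold, which do not depend on expression values. Windows from 250 bases before to 50 bases after the start site were taken from RefSeq (GRCm38.p6) for 40 of the 50 members, 19 of replication with 20 windows and 21 of mitosis with 21 windows. Mcm4, Gins1, Gins2, Pole and Ccne2, and Ccna2, Cdc25c, Aurkb, Kif20a and Tpx2, were not in the table. CHR was searched as the word TTTGAA and the word TTCGAA, the CCAAT box as CCAAT, and E2F by any of the words TTGGCGC and TTCGCGC and also TTCCCGC, all on both strands. A TTGGCGC match read on the other strand ends in CCAA and can overlap a CCAAT box by those letters. The windows of 5 genes are shown 5′ to 3′ on the gene's strand, with matches to any of these letters in capitals. They are a replication gene with E2F letters, the anchors of mitosis, and Ube2c, which was added after its values were seen.
Mcm5, chr8:75109259-75109558, plus strand: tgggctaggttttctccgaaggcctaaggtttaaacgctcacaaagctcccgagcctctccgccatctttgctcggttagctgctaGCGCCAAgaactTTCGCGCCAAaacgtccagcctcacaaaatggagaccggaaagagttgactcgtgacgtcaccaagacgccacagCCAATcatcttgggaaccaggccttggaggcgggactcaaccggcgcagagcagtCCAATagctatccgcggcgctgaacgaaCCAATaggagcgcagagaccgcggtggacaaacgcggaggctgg
Ccnb1, chr13:100786437-100786736, minus strand: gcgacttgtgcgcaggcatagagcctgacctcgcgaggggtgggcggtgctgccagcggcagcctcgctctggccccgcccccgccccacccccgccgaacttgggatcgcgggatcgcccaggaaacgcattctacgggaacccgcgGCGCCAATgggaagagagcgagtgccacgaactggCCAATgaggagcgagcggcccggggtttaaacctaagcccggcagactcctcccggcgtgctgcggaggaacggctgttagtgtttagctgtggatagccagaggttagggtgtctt
Aurka, chr2:172370521-172370820, minus strand: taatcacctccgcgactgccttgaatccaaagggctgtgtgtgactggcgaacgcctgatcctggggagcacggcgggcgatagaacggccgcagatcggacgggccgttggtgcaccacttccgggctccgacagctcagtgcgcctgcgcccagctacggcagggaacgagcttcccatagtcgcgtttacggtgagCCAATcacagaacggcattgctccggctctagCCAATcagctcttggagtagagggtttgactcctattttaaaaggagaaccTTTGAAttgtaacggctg
Bub1, chr2:127831810-127832109, minus strand: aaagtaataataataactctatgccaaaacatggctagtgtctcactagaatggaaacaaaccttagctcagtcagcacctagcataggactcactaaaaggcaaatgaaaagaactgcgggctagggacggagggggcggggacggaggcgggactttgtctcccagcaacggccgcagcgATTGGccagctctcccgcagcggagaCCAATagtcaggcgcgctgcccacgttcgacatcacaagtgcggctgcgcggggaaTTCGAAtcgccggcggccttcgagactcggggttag
Ube2c, chr2:164769679-164769978, plus strand: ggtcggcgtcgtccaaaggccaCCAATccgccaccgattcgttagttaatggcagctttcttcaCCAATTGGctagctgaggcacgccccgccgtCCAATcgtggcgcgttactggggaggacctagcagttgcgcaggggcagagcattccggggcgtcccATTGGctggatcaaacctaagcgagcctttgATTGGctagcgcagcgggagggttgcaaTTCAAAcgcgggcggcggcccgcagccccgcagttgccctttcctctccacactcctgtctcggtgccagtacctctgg

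Mcm5 holds 3 E2F matches and 3 CCAAT boxes and no CHR match. Aurka and Bub1 each hold 1 CHR match, at positions 33 and 15 from the start site, and 2 CCAAT boxes upstream. Ube2c holds 1 CHR match at position -29 and 6 CCAAT boxes, and Ccnb1 holds 2 CCAAT boxes, 1 E2F match that overlaps a CCAAT box, and no CHR match in this window. Over the members, 76.2% of the mitosis windows held CHR letters, against 15% of the replication windows and 19.2% of all 32851 windows of this length. E2F letters were in 60% of the replication windows, 14.3% of the mitosis windows and 8.07% of all windows. The CCAAT box was in 70% and 85.7%, against 37.4% of all windows. All 16 mitosis windows with CHR letters also held a CCAAT box. The shares describe letters and were not tested.

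**Figure D1:**
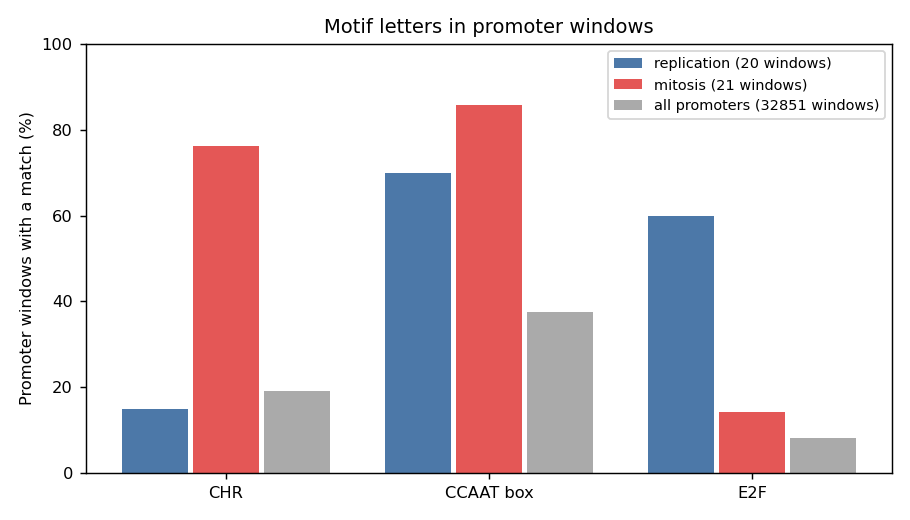
Share of promoter windows (%) that hold the letters of CHR, the CCAAT box and E2F, for 20 replication windows, 21 mitosis windows and all 32851 windows of the RefSeq table. CHR letters stand at 76.2% in mitosis windows, and E2F letters at 60% in replication windows.

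The libraries of the Bcor-/-Dnmt3a-/- genotype stood apart from the others. Its replicates correlated, across genes that are no replicates of each other, at a Pearson's r of 0.849 (LSK) and 0.815 (MEP), where every pair within another genotype reached 0.971 or more. Read counts are not given, so depth is known only relative to WT replicate 1, from the steps of the lowest FPKM values, at 0.734 to 1.37 times in LSK and 0.872 to 1.47 times in MEP. RNA of the deleted genes was not lost: Bcor had 22.4 and 23.2 FPKM in Bcor-/- LSK against 32.4, 31.1 and 29.5 in WT, and Dnmt3a had 16.9, 14.0 and 11.3 in Dnmt3a-/- LSK against 19.8, 16.1 and 17.2. Dnmt3a of the Bcor-/-Dnmt3a-/- libraries had 10.4 and 10.9 FPKM in LSK, below every WT library, and 6.85 and 3.44 in MEP, where WT had 6.11, 5.49 and 6.64 and Dnmt3a-/- 5.40, 2.97 and 2.56, so that replicate 1 in MEP lay above every WT library. In Bcor-/-Dnmt3a-/- LSK, Bcor had 24.01 and 37.4 FPKM, so that replicate 2 lay above every WT library. The other Bcor-/- and Bcor-/-Dnmt3a-/- values of Bcor lay below WT in LSK. In MEP, Bcor had 19.5 and 22.4 FPKM in Bcor-/- and 19.6 and 26.7 in Bcor-/-Dnmt3a-/- against 26.9, 21.3 and 22.4 in WT, with replicate 2 of each within the WT range. Gene-level FPKM do not show the deleted exons, so genotypes are those of the labels. The gate markers were checked in Bcor-/-Dnmt3a-/- LSK, where Ly6a, which encodes Sca1, had 63.5 and 220.2 FPKM against 66.0, 70.7 and 59.8 in WT, and Kit had 47.7 and 19.4 against 164, 148 and 174. Kit was thus present but below every WT library, and Cd34, a progenitor gene, had 5.87 and 37.3 FPKM against 649.7, 551 and 548. In Bcor-/-Dnmt3a-/- MEP, Kit had 38.1 and 20.2 FPKM against 82.9, 77.0 and 83.5 in WT, again lower in both. Ly6a, for which the MEP gate is negative, had 17.8 and 1.87 FPKM there against 0.79, 0. and 0.751 in WT, so that replicate 1 goes against the gate.

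In WT mice every member was expressed in both cell types. The mean of log2(FPKM + 1) over the replication members was 5.54 to 5.63 in the WT LSK libraries and 6.42 to 6.73 in the WT MEP libraries, and that over the mitosis members was 5.48 to 5.66 and 5.93 to 6.26. The cell types were deposited in separate tables whose scaling is not given, so these levels are set side by side and were not compared by a test. Within a library, the replication mean minus the mitosis mean was 0.079, -0.031 and 0.055 log2 units in WT LSK and 0.51, 0.47 and 0.49 in WT MEP. Of the 50 members in WT LSK, Mcm6 stood highest, at 263, 257 and 223 FPKM. Ccne1, the gene of cyclin E1, at 5.67, 7.59 and 8.005 FPKM, Orc1 at 6.79, 6.08 and 6.39 and Ccne2 at 6.32, 9.02 and 6.38 stood lowest, with values that overlap. In WT MEP, Ccne1 had 90.1, 119 and 86.4 FPKM.

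Relative to the mean of the WT libraries, the replication mean of each library was plotted against its mitosis mean. In LSK, the Bcor-/- libraries had replication means of -0.016 and 0.17 and mitosis means of 0.31 and 0.56, in log2 units. In both, the mitosis mean was shifted further up than the replication mean. The Bcor-/-Dnmt3a-/- LSK libraries had 0.45 and -0.41 for replication and 0.39 and -0.55 for mitosis, so that replicate 1 was high and replicate 2 low in both programmes. In MEP, the same mice stood the other way round, at -0.42 and 0.10 for replication and -0.19 and 0.78 for mitosis. Replication minus mitosis, relative to WT, was -0.33 and -0.39 in Bcor-/- LSK, 0.056 and 0.15 in Bcor-/-Dnmt3a-/- LSK and -0.23 and -0.67 in Bcor-/-Dnmt3a-/- MEP. WT itself ran from -0.065 to 0.045 in LSK and from -0.019 to 0.018 in MEP, and the Dnmt3a-/- libraries had 0.11, -0.019 and 0.093 in LSK and 0.13, 0.12 and 0.072 in MEP. The Bcor-/- MEP libraries had 0.021 and 0.053. The negative balance was thus seen in LSK of Bcor-/- and in MEP of Bcor-/-Dnmt3a-/-, and no test was made on these means.

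**Figure D2:**
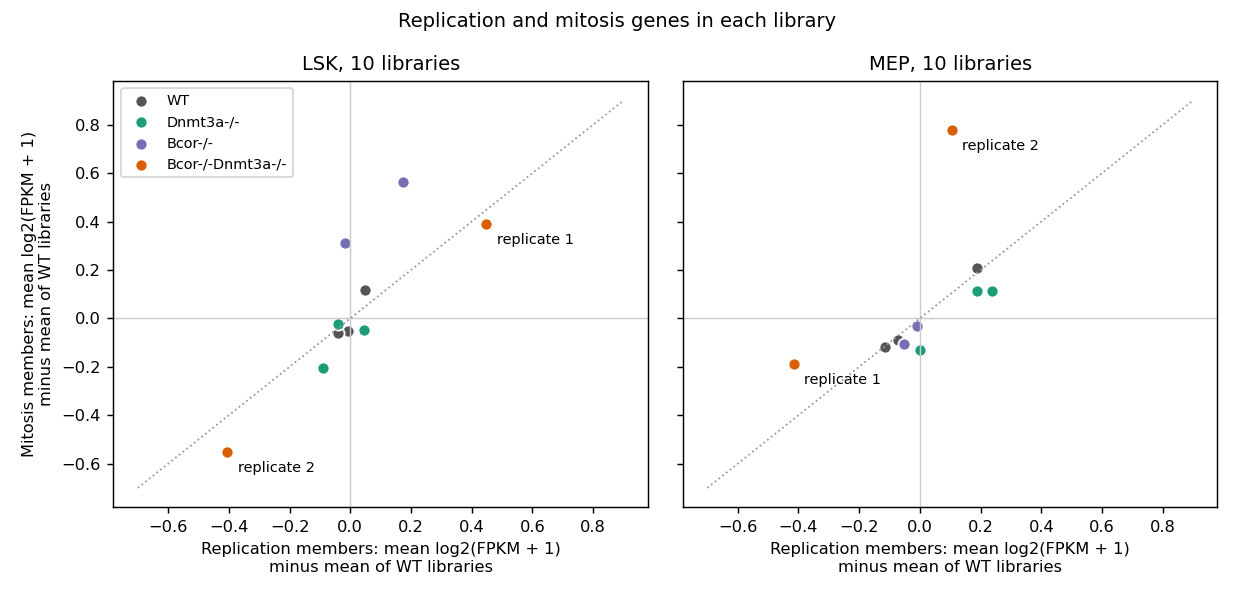
Mean log2(FPKM + 1) of the 24 replication members (x axis) and of the 26 mitosis members (y axis) of each library, minus the mean of the WT libraries, in LSK (left) and MEP (right). Points are libraries, and the dotted line marks equal shifts. Bcor-/- LSK libraries lie above the line, and the Bcor-/-Dnmt3a-/- libraries lie on opposite sides of the WT mean in both cell types.

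In Bcor-/- LSK, 8 genes of mitosis rose, and of the genes of replication Ccne1 was the 1 that passed the test. Calls needed an unadjusted p under 0.05 together with more than a 1.5-fold change, in limma's two-sided test on log2(FPKM + 1) with all 4 genotypes in the fit. Of the 26 mitosis members, 8 were called higher and 0 lower, against 7.2% of all tested genes called higher and 6.03% called lower. Their log2 fold changes had a median of 0.40, with 25 of 26 above 0, where the median over all tested genes was -0.0071. Of the 24 replication members, 1 was called higher and 0 lower, with a median of 0.13 and 16 above 0. With Benjamini-Hochberg adjustment over all tested genes, 2 members passed, Ube2c and Cenpa. The libraries come from separate mice or, for 1 of Bcor-/-, a pair of mice, and with 2 libraries against 3 an exact permutation test of a gene cannot give a p below 0.1.

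Ube2c, the ubiquitin-conjugating enzyme that works with the APC/C, had 77.4, 97.6 and 77.4 FPKM in WT, 69.4, 76.2 and 95.6 in Dnmt3a-/- and 175 and 207 in Bcor-/- LSK. Both Bcor-/- libraries lay above all WT and Dnmt3a-/- libraries (log2 fold change 1.18, SE 0.21, limma adjusted p = 0.0201). Its partner Cdc20, an activator of the APC/C, had 98.2 and 124 FPKM in Bcor-/- and 68.9, 75.7 and 67.9 in WT (log2 fold change 0.64, SE 0.26, limma adjusted p = 0.168). Cenpa, the histone H3 variant that marks centromeres, had 67.7, 81.1 and 68.3 FPKM in WT, 57.3, 68.3 and 70.5 in Dnmt3a-/- and 113 and 136 in Bcor-/-. The Bcor-/- values again lay above all others of these genotypes (log2 fold change 0.77, SE 0.19, limma adjusted p = 0.0457). Birc5, a subunit of the chromosomal passenger complex, was called at a log2 fold change of 0.59, SE 0.25, with a limma adjusted p of 0.176.

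Plk1, Aurka, Ccnb1 and Cdk1, which drive entry into mitosis, also rose. Plk1, the Polo kinase, had 26.7, 39.4 and 27.9 FPKM in WT, 25.5, 28.1 and 26.1 in Dnmt3a-/- and 52.3 and 76.9 in Bcor-/- (log2 fold change 1.02, SE 0.28, limma adjusted p = 0.0634). Aurka, the Aurora kinase of centrosomes, had 33.4, 38.7 and 33.8 FPKM in WT, 25.6, 28.2 and 30.9 in Dnmt3a-/- and 46.7 and 70.1 in Bcor-/- (log2 fold change 0.69, SE 0.21, limma adjusted p = 0.0847). For both genes replicate 2 of Bcor-/- was the higher one. Ccnb1, the gene of cyclin B1, had 22.2, 30.7 and 28.1 FPKM in WT, 20.6, 26.5 and 27.2 in Dnmt3a-/- and 42.9 and 49.9 in Bcor-/- (log2 fold change 0.77, SE 0.27, limma adjusted p = 0.12). Cdk1, its kinase, was called with a log2 fold change of 0.72, SE 0.25, and a limma adjusted p of 0.115. The adjusted p of each of these 4 genes missed 0.05.

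The other roles in mitosis had no member called beyond these. The 4 spindle checkpoint members, Bub1, Bub1b, Ttk and Mad2l1, had log2 fold changes of 0.23 to 0.37 and 0 were called. Bub1, a checkpoint kinase, had 21.1, 20.8 and 19.7 FPKM in WT, 18.7, 21.5 and 21.0 in Dnmt3a-/- and 25.5 and 28.3 in Bcor-/-, without overlap with WT. The 5 motor and spindle members had 0.041 to 0.45 with 0 called, and the 2 members of chromosome structure, Top2a and Mki67, had 0.074 and 0.25. The exception in sign was Cdc25b, a phosphatase that activates Cdk1, with 19.7 and 19.1 FPKM in Bcor-/-, below WT at 23.1, 28.2 and 23.8 (log2 fold change -0.35), which did not reach the fold threshold.

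On the replication side, helicase loading members had log2 fold changes of -0.25 to 0.18 in Bcor-/- LSK, with 5 of 10 above 0. Mcm2 had 109.6, 111 and 104 FPKM in WT, 112.2, 101 and 109 in Dnmt3a-/- and 101 and 109 in Bcor-/-. Mcm5 had 121, 127 and 117 FPKM in WT, 115, 109 and 120.4 in Dnmt3a-/- and 120.4 and 146 in Bcor-/-. These ranges overlap. Mcm3 (168, 162 and 159 in WT, 129 and 147 in Bcor-/-), Mcm4 (97.9, 93.2 and 83.9 in WT, 73.3 and 82.9 in Bcor-/-) and Mcm6 (263, 257 and 223 in WT, 200.2 and 215 in Bcor-/-) lay below every WT library in both Bcor-/- libraries without a call. Mcm7 (203, 193 and 170.5 in WT, 188 and 188 in Bcor-/-) overlapped. The GINS subunits Gins1 (33.4, 34.5 and 30.9 in WT, 32.9 and 33.4 in Bcor-/-) and Gins2 (36.4, 38.7 and 41.5 in WT, 38.8 and 43.9 in Bcor-/-) had overlapping values as well. Pcna had 207, 199 and 195 FPKM in WT, 169.9, 189 and 223 in Dnmt3a-/- and 184 and 177 in Bcor-/-, below every WT library. The log2 fold changes of Mcm2, Mcm5, Mcm7, Gins1, Gins2 and Pcna lay between -0.15 and 0.13. After quantile normalization the median of the replication members was -0.011, so its sign is not settled, while that of the mitosis members was 0.30.

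Ccne1 was the replication member called in Bcor-/- LSK, with 5.67, 7.59 and 8.005 FPKM in WT, 7.96, 7.88 and 10.2 in Dnmt3a-/- and 10.7 and 18.3 in Bcor-/- (log2 fold change 0.91, SE 0.26, limma adjusted p = 0.0708). Both Bcor-/- values lay above those of WT and Dnmt3a-/-. Without Bcor-/- replicate 2, 2 members were called, Cenpa and Ube2c, against 10 without replicate 1. Over all tested genes 4.75% were then called higher without replicate 2 and 7.97% without replicate 1, so that calls fell genome-wide too. A genotype left with 1 library has no spread of its own in such a fit, and that library is assumed to vary like those of the other genotypes. Without Bcor-/- replicate 2 the log2 fold changes were 0.74 for Plk1, 0.66 for Ccnb1, 0.55 for Ccne1 and 0.40 for Aurka, none of them called. Leaving out WT replicate 1 or 3 left 6 members called, with Birc5 and Cdc20 lost either way, Ccnb1 lost without WT replicate 1 at 0.64 and Cdk1 lost without WT replicate 3. Cdc20 was also lost without WT replicate 2 and without Dnmt3a-/- replicate 2 or 3, and Birc5 without Dnmt3a-/- replicate 2. Leaving out a Dnmt3a-/- library left their log2 fold changes at 0.64 and 0.59.

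Markers of other cell types moved with this result. The summed FPKM of 15 erythroid markers found in the table, of 16 listed, was 1003 and 1539.9 in Bcor-/- LSK against 494 to 665 in WT, and that of 10 of 10 granulocyte and monocyte markers was 17874 and 25692 against 3465 to 12937. Car1 alone had 379 and 680 FPKM of the erythroid sum, against 49.9, 77.6 and 76.0 in WT, while Alas2 and Slc4a1 lay within the WT range. Mpo (4710 and 8426) and Elane (3351 and 5593) made up much of the other sum, with Ngp, S100a8 and S100a9 within the WT range. The sum of 10 of 10 stem cell markers was 943 and 625 against 1243 to 1461, and none of these markers was at 0 in a Bcor-/- library. The sum of 6 of 6 T and NK cell markers was 465 and 626 against 233 to 254, of which Nkg7 made up 448 and 615, and Cd3e was at 0 in replicate 1. Their part in the result was not tested.

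**Figure D3:**
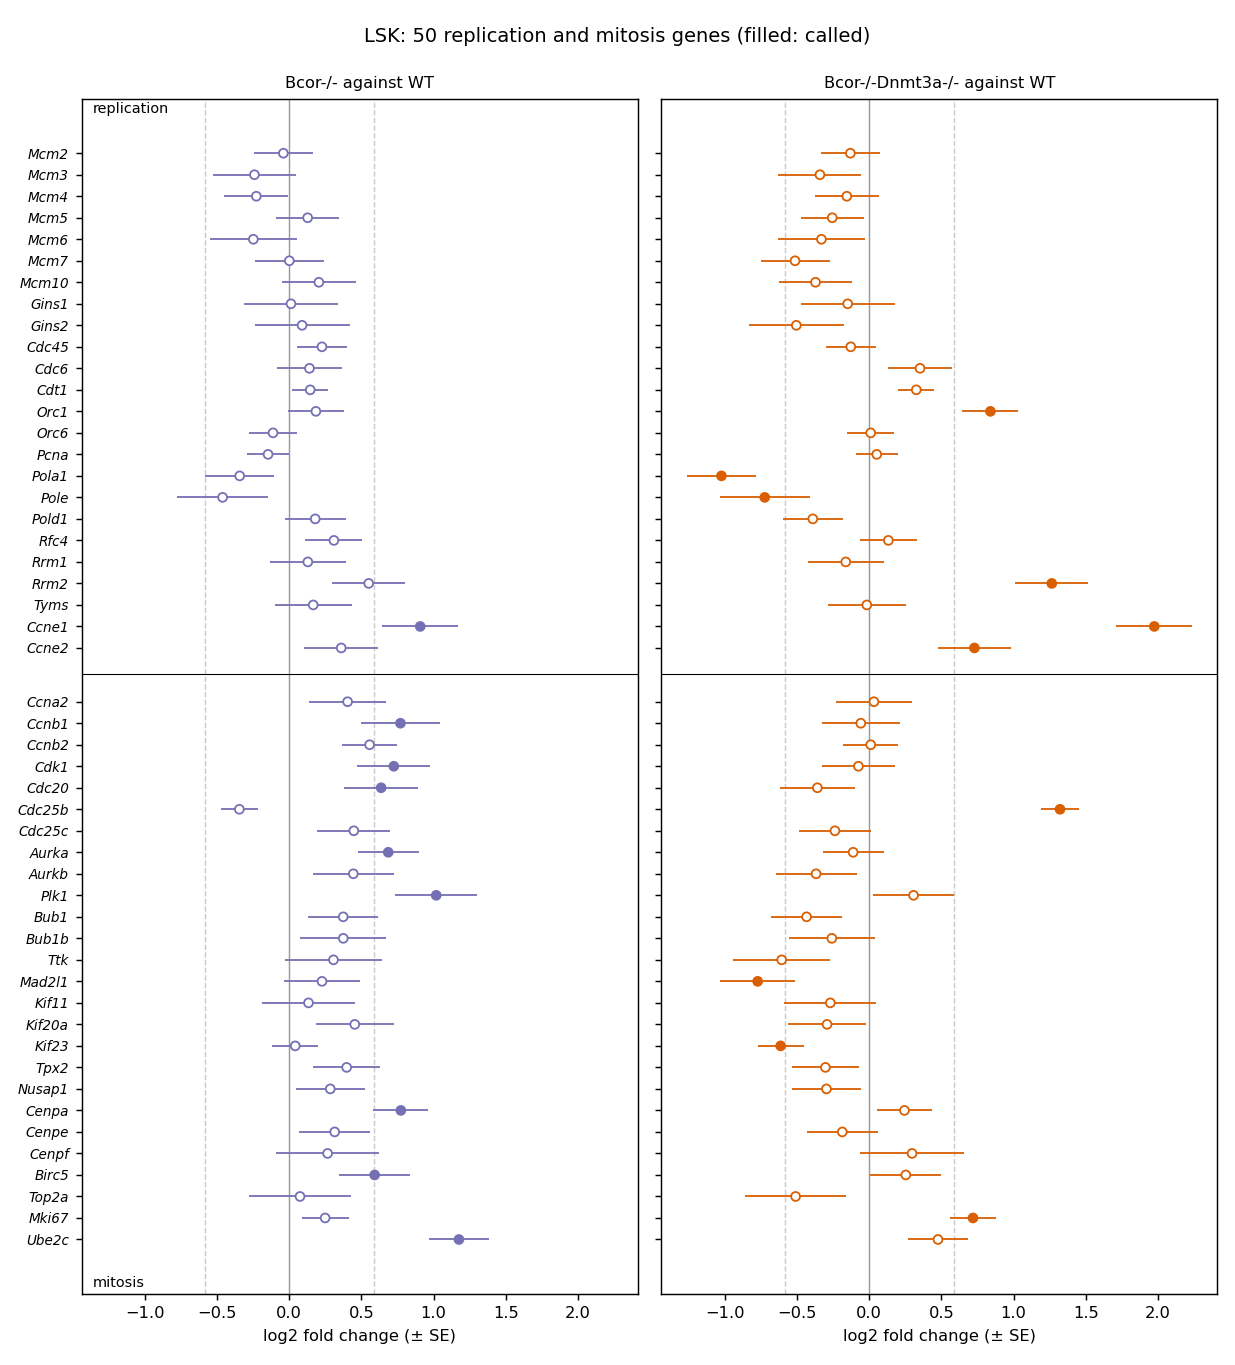
Log2 fold changes (± SE) of the 50 members in LSK, Bcor-/- against WT (left) and Bcor-/-Dnmt3a-/- against WT (right), which share the WT libraries. Filled points passed p under 0.05 and a fold change above 1.5, and dashed lines mark that fold. On the left 8 mitosis members and Ccne1 are filled on the higher side, and on the right 6 members are filled on the higher and 4 on the lower side.

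In Bcor-/-Dnmt3a-/- LSK, a few members rose strongly, cyclin E1 the most, while most of both programmes passed no test. Of 24 replication members, 4 were called higher and 2 lower, and of 26 mitosis members, 2 higher and 2 lower. Among all tested genes, 15% were called higher and 13.3% lower, and counts this near the background are no result about the members as a group. The median log2 fold change was -0.14 for replication and -0.21 for mitosis, against 0.019 for all tested genes. With the adjusted p, 5 members were called higher and 2 lower.

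Ccne1 stood at 38.2 and 24.3 FPKM here, where WT had 5.67, 7.59 and 8.005 (log2 fold change 1.97, SE 0.26, limma adjusted p = 0.000722). Both values lay above those of every other LSK library, Bcor-/- included. Ccne2, the gene of cyclin E2, had 16.5 and 9.41 FPKM against 6.32, 9.02 and 6.38 (log2 fold change 0.73, SE 0.25, limma adjusted p = 0.0598). Replicate 2 of Ccne2 was close to the highest WT value, and the call was lost without Bcor-/-Dnmt3a-/- replicate 1 (log2 fold change 0.35) and without WT replicate 1 (0.65) or 3 (0.66). Rrm2, the small subunit of ribonucleotide reductase that makes deoxyribonucleotides, had 208 and 124 FPKM against 58.3, 83.9 and 59.7 in WT and 85.5 and 111 in Bcor-/- (log2 fold change 1.26, SE 0.25, limma adjusted p = 0.0057). Orc1, the largest subunit of the origin recognition complex, had 14.2 and 10.6 FPKM against 6.79, 6.08 and 6.39 (log2 fold change 0.84, SE 0.19, limma adjusted p = 0.0112). For Rrm2 and Orc1 both Bcor-/-Dnmt3a-/- libraries lay above every library of the other genotypes.

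The polymerase genes Pola1 and Pole fell. Pola1, the catalytic subunit of the primase-associated polymerase, had 28.8 and 13.6 FPKM against 43.0, 42.7 and 38.8 in WT (log2 fold change -1.02, SE 0.24, limma adjusted p = 0.0122). Both values lay below every WT library, and without Bcor-/-Dnmt3a-/- replicate 2 the log2 fold change was -0.51, under the fold threshold. Pole, the catalytic subunit of the leading-strand polymerase, had 28.6 and 10.6 FPKM against 32.2, 29.7 and 27.1 (log2 fold change -0.72, SE 0.31, limma adjusted p = 0.116). Replicate 1 of Pole lay within the WT range, and its call was lost without Bcor-/-Dnmt3a-/- replicate 2 at -0.046, without each WT library at -0.78 to -0.66, and without any 1 library of Dnmt3a-/- or Bcor-/- at -0.72.

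Among mitosis members, Cdc25b had 58.2 and 69.9 FPKM, compared with 23.1, 28.2 and 23.8 in WT, 24.7, 25.3 and 21.9 in Dnmt3a-/- and 19.7 and 19.1 in Bcor-/- (log2 fold change 1.32, SE 0.13, limma adjusted p = 0.000166). Mki67, which codes for the proliferation antigen Ki-67, had 185 and 130.4 FPKM against 94.7, 97.5 and 90.2 (log2 fold change 0.72, SE 0.16, limma adjusted p = 0.0102). These were the mitosis members that lay above every WT library in both Bcor-/-Dnmt3a-/- libraries, though Mki67 was at 0.47 without replicate 1, under the fold threshold. Mad2l1, a checkpoint protein that holds Cdc20, had 50.4 and 26.2 FPKM against 60.6, 66.6 and 61.7 (log2 fold change -0.77, SE 0.26, limma adjusted p = 0.0532). Kif23, the central spindle motor of cytokinesis, had 34.6 and 23.2 FPKM against 45.7, 42.5 and 43.6 (log2 fold change -0.61, SE 0.16, limma adjusted p = 0.0187). Both genes were below every WT library in both, and without replicate 2 their log2 fold changes were -0.31 and -0.33, neither called.

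For most members the Bcor-/-Dnmt3a-/- LSK libraries lay on opposite sides of WT. Replicate 1 was above every WT library in 20 of 24 replication and 22 of 26 mitosis members, while 40.8% of all tested genes were. Replicate 2 was below every WT library in 19 and 20 members, while 40.9% of all tested genes were. Mcm6 had 308 and 125 FPKM in replicates 1 and 2, Mcm3 199 and 82.7, and Gins2 45.2 and 16.0, where their WT values stand above. The same split held for Mcm2 (132 and 73.7), Mcm4 (113 and 59.8), Mcm5 (138 and 74.6) and Gins1 (49.2 and 17.6). Mcm7 (186 and 92.9) was within the WT range in replicate 1, and Pcna (236 and 183) was above it in replicate 1 and below it in replicate 2. The mitosis anchors Ccnb1 (36.7 and 17.9), Aurka (40.3 and 26.2) and Bub1 (21.6 and 10.2) also lay above WT in replicate 1 and below it in replicate 2. None of these 12 anchors was called, with log2 fold changes from -0.51 to 0.052. Without Bcor-/-Dnmt3a-/- replicate 1, 30 members were called, 4 higher and 26 lower, beside 20.6% of all tested genes higher and 19% lower. Without replicate 2, 11 were called, all higher, beside 16.7% higher and 15.5% lower. Leaving out either takes this genotype, whose pair differed most, out of the estimate of spread, and calls over all genes went up both times.

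Sums of erythroid, B cell, megakaryocyte and stem cell markers set both of these libraries apart from WT. The erythroid sum was 7868 and 25190.3 FPKM, against 494 to 665 in WT, and the sum of 6 of 6 B cell markers was 2422 and 1121 against 39.5 to 81.6. Of the B cell markers, Vpreb1 went the other way in replicate 2, with 878 and 1.88 FPKM against 4.80, 16.4 and 3.26 in WT. The sum of 5 of 5 macrophage markers was 1295 and 41.8 against 30.3 to 259, with replicate 1 above and replicate 2 within the WT range. The stem cell sum was 180.4 and 383 against 1243 to 1461, though Ly6a of that list was within the WT range in replicate 1 and above it in replicate 2. Granulocyte and monocyte markers summed to 7888 and 8335, within the WT range. The sum of 9 of 9 megakaryocyte markers was 16.2 and 59.4 against 160.4 to 200.2, below WT in both, though Ppbp was within the WT range in replicate 2. The T and NK cell sum was 131 and 394, on either side of WT, and its markers moved both ways. Nkg7 had 56.8 and 162 FPKM against 214, 228 and 207 in WT, below every WT library in both. Cd3e, Cd3d, Cd3g, Lck and Klrb1c lay above every WT library in both. Cd3g, for example, had 12.3 and 57.3 FPKM against 0.224, 0.766 and 0.855. Of these lists, Gp6 of the megakaryocyte list was the marker at 0 in these libraries, as in all LSK libraries, and the part of these cells in the result was not tested.

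Set directly against Bcor-/-, most calls in Bcor-/-Dnmt3a-/- LSK were mitosis members called lower, and all 15 lower calls, of both programmes, were lost without its replicate 2. Relative to WT, the mitosis mean of that library, -0.55, lay below both Bcor-/- libraries (0.31 and 0.56), while that of replicate 1, 0.39, lay between them. Of 26 mitosis members, 14 were called lower and 1, Cdc25b, higher, against 14.8% of all tested genes lower and 15.8% higher. The median log2 fold change over mitosis members was -0.67, against -0.13 over replication members and -0.026 over all tested genes. Among those called lower were Cdc20 (log2 fold change -0.995, SE 0.28, limma adjusted p = 0.0284) and Aurka (log2 fold change -0.80, SE 0.23, limma adjusted p = 0.0307). Ube2c had 144 and 94.4 FPKM against 175 and 207 in Bcor-/- (log2 fold change -0.70, SE 0.23, limma adjusted p = 0.0467), and Ccnb1 was lower by the same rule (log2 fold change -0.83, SE 0.30, limma adjusted p = 0.0643). Bcor-/-Dnmt3a-/- values lay below both Bcor-/- values in both replicates for Cdc20, Aurka, Ube2c and Ccnb1. Of the replication members, Ccne1 (log2 fold change 1.07, SE 0.29, limma adjusted p = 0.0228), Rrm2 (log2 fold change 0.71, SE 0.28, limma adjusted p = 0.0816) and Orc1 (log2 fold change 0.66, SE 0.21, limma adjusted p = 0.0449) were higher and Pola1 (log2 fold change -0.68, SE 0.26, limma adjusted p = 0.0814) lower. With the adjusted p, 9 members were called in place of 19. Calls were 4 higher and 15 lower as deposited, and 2 higher and 21 lower after median centring. Without Bcor-/-Dnmt3a-/- replicate 1, 39 members were called, 2 higher and 37 lower, beside 21.4% of all tested genes higher and 20.8% lower. Without its replicate 2, 8 were called higher, 5 of replication and 3 of mitosis, and 0 lower, beside 17.5% higher and 16.3% lower. The 8 are near that background, and the mitosis median stayed below 0, at -0.18. Without Bcor-/- replicate 2, 5 were called higher and 1, Mad2l1, lower, beside 13.4% and 12.7%. Without Bcor-/-Dnmt3a-/- replicate 2, the log2 fold changes of Cdc20, Aurka, Ube2c, Ccnb1 and Pola1 were -0.47, -0.50, -0.39, -0.33 and -0.17, all under the fold threshold. Without Bcor-/- replicate 2 they were -0.83, -0.51, -0.58, -0.72 and -0.67, also not called, though those of Cdc20, Ccnb1 and Pola1 were past the fold threshold. The calls of Ccne1, Rrm2, Orc1 and Pola1 were lost without Bcor-/- replicate 1, at 0.71, 0.53, 0.38 and -0.69. The values of Ccne1 and Pola1 were then still past the fold threshold. Without Bcor-/-Dnmt3a-/- replicate 1 the calls of Rrm2 and Orc1 were lost, at 0.34 and 0.46. Cdc25b was called each time.

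**Figure D4:**
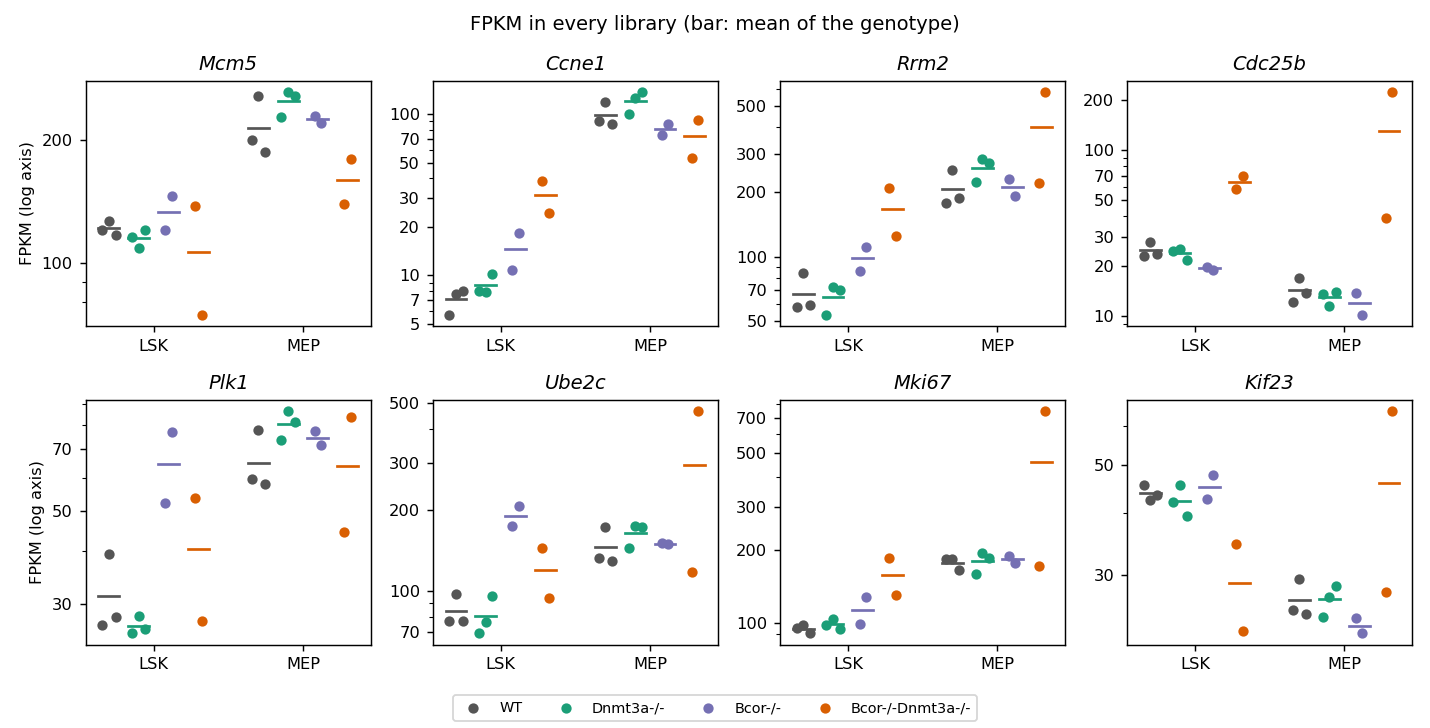
FPKM (log axis) of 8 members in each of the 20 libraries, by cell type and genotype, where points are libraries and bars are means. Ccne1 is higher in Bcor-/- and higher still in Bcor-/-Dnmt3a-/- LSK, Plk1 and Ube2c are high in Bcor-/- LSK, and replicate 2 of Bcor-/-Dnmt3a-/- is high in MEP for Rrm2, Cdc25b, Ube2c, Mki67 and Kif23. The cell types come from separate tables, whose scaling is not given.

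In Bcor-/-Dnmt3a-/- MEP, Cdc25b, Cenpf and Kif23 were called higher and the replication genes Pold1 and Gins2 lower. These 5 calls were 3 of 26 mitosis members higher and 2 of 24 replication members lower. Of all tested genes, 18.5% were called higher and 12.4% lower. Counts no higher than that background are no result about the members as a group. With the replicate block the call of Kif23 was lost, and Ccne2 and Rrm2 were called higher. The median log2 fold change was 0.18 over mitosis members, with 17 of 26 above 0, and -0.16 over replication members, with 6 of 24 above 0, against 0.018 over all tested genes. Centring each library on its median moved the median of all genes to -0.14 and that of the mitosis members to 0.026, and quantile normalization moved them to -0.18 and 0.090. Member calls were then 2 higher and 5 lower by median centring and 4 higher and 2 lower by quantile normalization. With the adjusted p, 4 members were called.

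Cdc25b had 38.9 and 223 FPKM in Bcor-/-Dnmt3a-/- MEP, against 12.1, 17.0 and 13.8 in WT, 13.5, 11.6 and 13.9 in Dnmt3a-/- and 13.9 and 10.2 in Bcor-/- (log2 fold change 2.64, SE 0.58, limma adjusted p = 0.00999). Both values lay above all others, and replicate 2 stood far above replicate 1: the log2 fold change was 1.39 without replicate 2 and 3.88 without replicate 1, called both times. Cenpf, a kinetochore protein, had 21.6 and 50.9 FPKM against 13.8, 14.8 and 15.2 (log2 fold change 1.13, SE 0.29, limma adjusted p = 0.018), and without replicate 2 its log2 fold change was 0.53, under the fold threshold. Kif23 had 27.8 and 64.4 FPKM against 25.5, 29.6 and 25.1 (log2 fold change 0.65, SE 0.28, limma adjusted p = 0.109). Replicate 1 of Kif23 was within the WT range, and the call was lost without replicate 2 (0.059), without each WT library (0.61 to 0.72) and without any 1 library of Dnmt3a-/- or Bcor-/- (0.65). Pold1, the catalytic subunit of the lagging-strand polymerase, had 36.5 and 32.1 FPKM against 65.0, 73.1 and 63.5 (log2 fold change -0.95, SE 0.11, limma adjusted p = 0.00076). Gins2 had 45.1 and 42.1 FPKM against 68.2, 80.0 and 61.0 (log2 fold change -0.66, SE 0.13, limma adjusted p = 0.00668), and without WT replicate 2 it was at -0.56, under the fold threshold. Both lay below every WT, Dnmt3a-/- and Bcor-/- library in both replicates.

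Here too the replicates differed, and replicate 2 differed between the programmes. Replicate 2 was above every WT library in 19 of 26 mitosis members and in 7 of 24 replication members, against 41.8% of all tested genes. Replicate 1 was below every WT library in 15 mitosis and 20 replication members, against 41.6% of all tested genes. In replicates 1 and 2, Mki67 had 172 and 750.2 FPKM, where WT had 182, 182 and 165. Ube2c had 118 and 469.7 against 133, 174 and 129 in WT. The mean change of either gene was not called. Ccnb1 had 40.2 and 91.3 against 42.9, 65.4 and 48.4, and Aurka 41.1 and 85.3 against 44.1, 66.0 and 52.6. Bub1 had 21.2 and 38.2 against 30.9, 33.9 and 32.0. In these 3 anchors replicate 1 was below and replicate 2 above every WT library.

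The helicase genes did not follow in replicate 2. Mcm2 had 134 and 193 FPKM against 188, 232 and 179 in WT, Mcm4 117 and 160.0 against 143, 163 and 137, and Mcm3 183 and 209.7 against 195, 234 and 193. Replicate 2 of these lay within the WT range and replicate 1 below it. Mcm5 had 139.5 and 179 against 199.97, 255 and 186, Mcm6 303 and 307 against 331, 375 and 320.1, and Mcm7 181 and 247 against 296, 359 and 258. Both replicates of these 3 lay below every WT library, without a call (log2 fold changes -0.42, -0.16 and -0.51). Pcna had 269 and 382 against 276, 340.0 and 284, and Gins1 61.2 and 53.9 against 53.9, 61.7 and 50.1. Without Bcor-/-Dnmt3a-/- replicate 1, 19 members were called, 17 higher and 2 lower, beside 23.4% of all tested genes higher and 18.3% lower. Without replicate 2, 11 were called, of which 8 were replication members called lower, beside 21.8% higher and 14% lower.

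Replicate 2 of Bcor-/-Dnmt3a-/- MEP also had the highest erythroid sum. It was 7161 and 104920.0 FPKM in replicates 1 and 2, against 5952 to 8788 in WT, and Hbb-b1 was listed at 0 in replicate 2. The B cell sum was 1867 and 121 against 20.5 to 111, and the macrophage sum 679.5 and 7.53 against 1.96 to 3.28. Granulocyte and monocyte markers summed to 6503 and 14218 against 292 to 753, mostly from S100a8 (2988 and 6713) and S100a9 (2682 and 5302). Mpo, Elane, Prtn3 and Ctsg of that list lay within the WT range in replicate 1 and above it in replicate 2. The B cell marker Vpreb1 again lay below WT in replicate 2, at 0.627 FPKM against 26.0, 50.9 and 7.43. The T and NK cell sum was 122 and 172 against 39.1 to 72.7, and the megakaryocyte sum 20.7 and 75.6 against 92.1 to 354. Pf4 made up much of the WT sums, at 199, 56.5 and 243 FPKM, and had 7.68 and 8.09 here. In replicate 2, Gp9 (20.5 against 14.6, 10.8 and 12.5 in WT) and Gp6 lay above WT, and Itga2b and Vwf within it. Gp6 and Ppbp were at 0 in replicate 1, and Gp6 was at 0 in WT replicates 2 and 3 too. The part of these cells in the result was not tested.

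**Figure D5:**
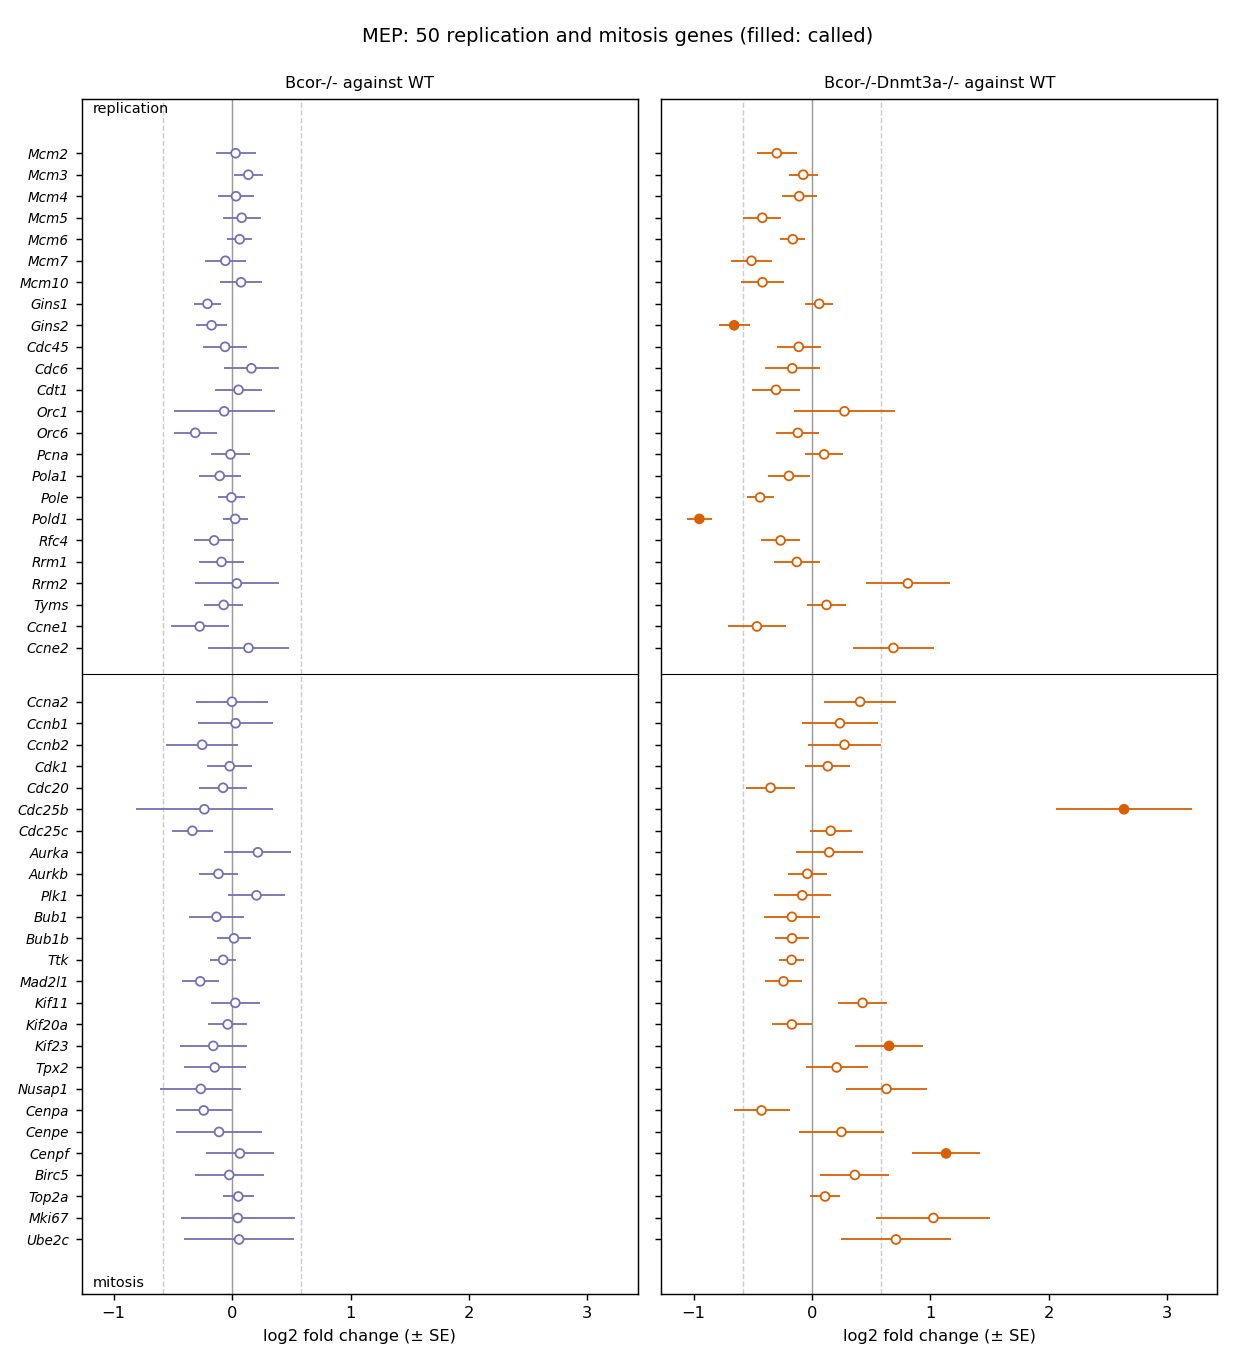
Log2 fold changes (± SE) of the 50 members in MEP, Bcor-/- against WT (left) and Bcor-/-Dnmt3a-/- against WT (right), which share the WT libraries. Filled points passed p under 0.05 and a fold change above 1.5, and dashed lines mark that fold. No member is filled on the left, and 3 mitosis members on the higher and 2 replication members on the lower side are filled on the right.

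Against Bcor-/-, the Bcor-/-Dnmt3a-/- MEP libraries had 4 mitosis members called higher, Cdc25b (2.87), Cenpf (1.07), Nusap1 (0.89) and Kif23 (0.81), and Pold1 (-0.98) called lower, as log2 fold changes. Nusap1, a spindle microtubule protein, had 61.9 and 163 FPKM against 55.4 and 51.8 in Bcor-/-. Of all tested genes 16.5% were called higher and 11.3% lower, and counts this near the background are no result about the members as a group. After median centring 2 members were called higher and 5 lower, and after quantile normalization 4 higher and 3 lower. Without Bcor-/-Dnmt3a-/- replicate 1, 17 members were called higher and 1 lower, beside 22.6% of all tested genes higher and 17.1% lower. Without its replicate 2 there were 1 higher, Cdc25b, and 9 lower, beside 21.2% and 13.5%. Cenpf, Nusap1 and Kif23 were lost without that replicate 2, at 0.47, 0.20 and 0.22. Nusap1 and Kif23 were also lost without Bcor-/- replicate 1 (0.94 and 0.86) or replicate 2 (0.85 and 0.76), though past the fold threshold. Nusap1 was lost too without any 1 library of WT or Dnmt3a-/-, which left its log2 fold change at 0.89.

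Bcor-/- MEP and both cell types of Dnmt3a-/- had no member called. In Bcor-/- MEP, limma called 0 of 50 members, against 2.76% of all tested genes in either direction, and 0 members had an unadjusted p under 0.05. The log2 fold changes ran from -0.34 to 0.22. Ube2c, for example, had 151 and 149 FPKM against 133, 174 and 129 in WT, and Plk1 77.4 and 71.9 against 59.6, 78.1 and 57.9, both with overlap. In Dnmt3a-/- LSK, 0 of 50 were called, against 0.443% of all tested genes, and in Dnmt3a-/- MEP 0 of 50, against 0.412%, with 0 members at an unadjusted p under 0.05 in either. Log2 fold changes ran from -0.31 to 0.26 in LSK and from -0.18 to 0.37 in MEP. In Dnmt3a-/- MEP, 21 of 24 replication members (median 0.15) and 19 of 26 mitosis members (median 0.020) lay above 0, against a median of -0.0090 over all tested genes. In Dnmt3a-/- LSK, 16 replication members (median -0.053) and 20 mitosis members (median -0.092) lay below 0, against 0.0027 over all tested genes. These signs were not tested. Ccne1, for example, had 99.9, 126 and 137 FPKM in Dnmt3a-/- MEP. All alternatives, a fit with 1 variance per genotype and the leaving out of each library among them, called 0 members in these 3 comparisons.

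Whether an effect differed between LSK and MEP was tested on the LSK minus MEP difference of each mouse. For Bcor-/-Dnmt3a-/-, 4 members were called, against 11% of all tested genes called higher in LSK and 18.6% called lower. Ccne1 had the largest of these (difference of log2 fold changes 2.44, SE 0.52, limma adjusted p = 0.0151), with a log2 fold change of 1.97 in LSK and -0.47 in MEP, where it had 53.7 and 92.0 FPKM against 90.1, 119 and 86.4 in WT. Cdt1, a licensing factor, was also higher in LSK (difference of log2 fold changes 0.63, SE 0.21, limma adjusted p = 0.059). Cdc25b (difference of log2 fold changes -1.31, SE 0.51, limma adjusted p = 0.0904) and Kif23 (difference of log2 fold changes -1.26, SE 0.41, limma adjusted p = 0.054) were higher in MEP. Kif23 was thus called lower in LSK and higher in MEP. Ccne1 was the member that passed with the adjusted p. The direction turned with the mouse left out. Without mouse 1 of Bcor-/-Dnmt3a-/-, 1 member was called higher in LSK and 37 lower, beside 17.6% of all tested genes higher and 20.7% lower. Without mouse 2, 30 were called higher and 0 lower, beside 14.2% higher and 23.7% lower. Without WT mouse 2 the count was 2. The call of Cdc25b was lost without any 1 WT mouse, though its difference then stayed past the fold threshold. Without mouse 2 of Bcor-/-Dnmt3a-/- it was lost too, with log2 fold changes of 1.19 in LSK and 1.39 in MEP. The call of Kif23 was also lost without that mouse, and that of Cdt1 without WT mouse 2 or mouse 1 of Bcor-/-Dnmt3a-/-. Quantile normalization gave 1 member higher and 3 lower.

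For Bcor-/-, 2 members differed between cell types, against 6.19% of all tested genes called higher in LSK and 5.78% lower. Ccne1 (difference of log2 fold changes 1.18, SE 0.52, limma adjusted p = 0.271) and Cenpa (difference of log2 fold changes 1.01, SE 0.33, limma adjusted p = 0.162) were higher in LSK, and neither passed with the adjusted p. Over the mitosis members the median difference was 0.50, with 25 of 26 above 0, and over the replication members 0.14 with 16 of 24, against 0.0040 over all tested genes. Leaving out either Bcor-/-Dnmt3a-/- mouse, which takes the spread between them out of the shared estimate, gave 10 called members, 1 of replication and 9 of mitosis, all higher in LSK, while 7.98% (without mouse 1) and 7.96% (without mouse 2) of all tested genes were called higher. Without any 1 mouse of WT or Dnmt3a-/-, the call of Ccne1 was lost and Cenpa was the 1 member called. A Dnmt3a-/- mouse does not enter this difference, so Ccne1 stayed at 1.18 when one was left out. Without Bcor-/- mouse 1 the call of Ccne1 was lost, and without Bcor-/- mouse 2 those of both genes.

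Other genes of the same pathways were read from lists of 46 replication genes, 72 mitosis genes and 19 regulators, all tested in both cell types. In Bcor-/- LSK, 7 of 72 mitosis genes were called higher and 0 lower, with a median log2 fold change of 0.24, and 0 of 46 replication genes were called. As 7.2% of all tested genes were called higher, the 7 are near the background and no result about the list. The 7 were the passenger complex gene Cdca8 (0.74), Hmmr (0.73), the Cdk1 subunit Cks2 (0.73), Cdca3 (0.70), Cenpw (0.63), Kif2c (0.62) and Ska1 (0.60), named after their values were seen, and 0 passed with the adjusted p. In Bcor-/-Dnmt3a-/- LSK, 0 of 72 mitosis genes were called higher and 11 lower, and 3 of 46 replication genes were called higher and 2 lower, beside 15% of all tested genes higher and 13.3% lower. The 11 lower calls are likewise near the background. Wee1, the kinase that restrains Cdk1, had 20.2 and 10.8 FPKM against 28.9, 26.1 and 32.9 in WT (log2 fold change -0.93, SE 0.22, limma adjusted p = 0.0115), and Cenpu, a centromere protein, 6.84 and 5.604 against 12.2, 11.7 and 13.1 (log2 fold change -0.89, SE 0.16, limma adjusted p = 0.00329). Both lay below every WT library, though Wee1 was at -0.51 without Bcor-/-Dnmt3a-/- replicate 2, under the fold threshold. Rfc2, a subunit of the clamp loader, had 101 and 77.2 FPKM against 182, 145 and 159.8 (log2 fold change -0.87, SE 0.15, limma adjusted p = 0.00257), and Pold4, a small subunit of the lagging-strand polymerase, had 83.9 and 93.2 against 37.3, 38.1 and 40.9 (log2 fold change 1.17, SE 0.12, limma adjusted p = 0.000209).

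Of the regulators, E2f2, a member of the E2F family, had 60.4 and 90.1 FPKM in Bcor-/-Dnmt3a-/- LSK, compared with 9.44, 10.7 and 9.64 in WT and 9.77 and 11.5 in Bcor-/- (log2 fold change 2.78, SE 0.17, limma adjusted p = 3.52e-05). Rb1, the retinoblastoma protein that restrains E2F factors, had 27.5 and 41.8 FPKM against 11.1, 12.5 and 11.8 (log2 fold change 1.45, SE 0.18, limma adjusted p = 0.000438). For both genes the Bcor-/-Dnmt3a-/- values lay above all other LSK libraries. E2f4 was also called higher, at 0.63, and E2f6 lower, at -0.82. In Bcor-/- LSK, 1 of 19 regulators was called, E2f7, lower at -0.84 (limma adjusted p = 0.139), beside 6.03% of all tested genes called lower, which is near the background. These 3 were named after their values were seen.

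In Bcor-/-Dnmt3a-/- MEP, E2f2 had 49.1 and 515 FPKM against 21.6, 33.5 and 15.3 in WT (log2 fold change 2.79, SE 0.79, limma adjusted p = 0.0283), and Tfdp2, a partner of E2F factors, 29.0 and 205 against 24.6, 27.4 and 21.7 (log2 fold change 1.63, SE 0.63, limma adjusted p = 0.0775). Replicate 2 stood far above replicate 1 in both genes. Without it E2f2 was at 1.10, and without replicate 1 at 4.47, called both times. Tfdp2 was at 0.24 without replicate 2 and not called, nor was it without any 1 WT library (1.54 to 1.70). E2f7, named after its values were seen and lower in Bcor-/- LSK, was called higher here (log2 fold change 0.89, SE 0.27, limma adjusted p = 0.0333). With it, 3 of 19 regulators were called higher and 0 lower. Of all tested genes 18.5% were called higher and 12.4% lower. The 3 regulators called higher and the 6 of 46 replication genes called lower are near that background. Pold4 was the 1 replication gene called higher, with 68.7 and 20.8 FPKM against 14.9, 13.7 and 16.0 (log2 fold change 1.30, SE 0.41, limma adjusted p = 0.0406), at 0.46 and not called without replicate 1. The lower ones were led by Timeless, a fork protection protein, with 33.0 and 31.9 FPKM against 66.9, 74.5 and 54.9 (log2 fold change -0.98, SE 0.14, limma adjusted p = 0.0019). Orc5, a subunit of the origin recognition complex, had 34.9 and 39.5 against 69.9, 77.3 and 68.0 (log2 fold change -0.93, SE 0.14, limma adjusted p = 0.00235), and Dut, the dUTPase, 95.5 and 77.1 against 151, 187 and 132 (log2 fold change -0.85, SE 0.16, limma adjusted p = 0.00567). Both replicates of these 3 lay below every WT library. Of 72 mitosis genes, 3 were called higher, Racgap1, Sgol2a and Fbxo5, and 2 lower, Cenpm and Cks1b, named after their values were seen, with log2 fold changes of 0.77, 0.75, 0.72, -0.63 and -0.63 in that order.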

How the data were processed

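PolyA RNA of sorted LSK and MEP cells was sequenced in 20 libraries. FPKM of each cell type were deposited by the authors as a table of their own, and the submitters' processing notes name STAR 2.5.1b, SAMtools 1.9, Cufflinks 2.2.1 and mm9, without roles. The scaling between libraries is not given in the sources used here. FPKM hold no counts, so precision is known only from the spread between libraries. Values were converted to log2(FPKM + 1), which understates changes of low genes, and genes averaging 1 FPKM or more in a cell type's 10 libraries were tested. limma 3.58.1 (R 4.3.3, trend=TRUE) fitted 1 mean per genotype, and for cell types the LSK minus MEP difference of each mouse. Calls used the study's thresholds, p under 0.05 without adjustment and more than a 1.5-fold change. Adjusted p-values are Benjamini-Hochberg values over all tested genes. The procedure was tested on simulated data, and no result given here rests on that test. The members and lists were chosen with earlier results of these data known. Values are given for Mcm2 to Mcm7, Pcna, Gins1, Gins2, Ccnb1, Aurka and Bub1, for up to 5 called members in each direction of each contrast with WT, and for up to 3 other pathway genes in each direction of the Bcor-/-Dnmt3a-/- contrasts. Further members are named where they fill a role or a small count. Alternatives were another pseudocount (0.1), no filter or a minimum of 5 FPKM, quantile normalization, median centring, only the compared genotypes, a replicate block, no trend, 1 variance per genotype, the adjusted p, a fold change above 2, and each library left out, where a genotype with 1 library left is assumed to vary like the others. Promoter windows came from RefSeq (GRCm38.p6), a build other than mm9, and no coordinates were joined to the tables. Python 3.11.15 (matplotlib 3.10.9) drew the plots.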

Additional observations from a re-analysis of the deposited data

Results flagged for a closer look

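Ccne1, the gene of cyclin E1, stood out because its change in Bcor-/-Dnmt3a-/- mice differed between cell types. The log2 fold change against WT was 1.97 in LSK and -0.47 in MEP, a difference of 2.44 with an SE of 0.52 and a limma adjusted p of 0.0151 over all tested genes. Both Bcor-/-Dnmt3a-/- LSK libraries lay above every other LSK library, and in MEP replicate 2 lay within the WT range and replicate 1 below it.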

How the results depend on the processing

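Counts of called members that moved by more than 1.5 times are given here. In LSK, Bcor-/-Dnmt3a-/- against WT gave 4 of its 10 calls at a fold change above 2, and Bcor-/- against WT gave 2 of its 9 at that fold and 2 with the adjusted p. Bcor-/-Dnmt3a-/- against Bcor-/- LSK, with 19 calls, gave 12 with 1 variance per genotype, 9 with the adjusted p, 2 at a fold above 2 and 3 with only the compared genotypes in the fit. In MEP, with 5 calls each, Bcor-/-Dnmt3a-/- against WT gave 2 at a fold above 2, and against Bcor-/- it gave 2 at that fold, 2 with only the compared genotypes and 3 with the adjusted p. For LSK minus MEP, the count of Bcor-/-Dnmt3a-/- fell from 4 to 1 with the adjusted p, and that of Bcor-/-, 2, became 1 with no filter, 1 with median centring, 10 with only the compared genotypes, 10 with 1 variance per genotype and 0 with the adjusted p. The cause of these moves was not tested.

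The replicate numbers belong to different mice, and same-numbered libraries deviated together at r of -0.0585 to 0.0871 in LSK and -0.193 to 0.336 in MEP, over 13 pairs each, with 0 and 8 pairs over 0.1. With the replicate block the call count in Bcor-/- LSK was 6 of 9, that of LSK minus MEP for Bcor-/- was 1, and Mcm7 and Gins1 in Bcor-/- LSK changed sign at -0.026 and -0.042. For Bcor-/-Dnmt3a-/- against WT the block lost Pole in LSK and Kif23 in MEP. It added Ccne2 and Rrm2 as higher in MEP, and Pold1 in LSK minus MEP. For Bcor-/-Dnmt3a-/- against Bcor-/- in LSK it lost Rrm2, Plk1, Aurkb and Kif20a.

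Leaving out 1 library at a time, counts ran from 8 to 30 for Bcor-/-Dnmt3a-/- against WT in LSK, 2 to 10 for Bcor-/- against WT, and 6 to 39 for Bcor-/-Dnmt3a-/- against Bcor-/-. In MEP they ran from 4 to 19 and from 3 to 18 for Bcor-/-Dnmt3a-/- against WT and Bcor-/-. For LSK minus MEP they ran from 2 to 38 for Bcor-/-Dnmt3a-/- and from 0 to 10 for Bcor-/-. The MEP balance of replication minus mitosis in Bcor-/-Dnmt3a-/- ran from -0.67 to -0.23. Log2 fold changes of members that changed sign also had wide ranges. Against WT, Top2a in Bcor-/-Dnmt3a-/- LSK was at -1.28 without replicate 1 and at 0.26 without replicate 2. Mki67 in Bcor-/-Dnmt3a-/- MEP was at 2.08 and -0.034 in the same order. The ranges listed here are those of the anchor genes alone. In LSK Bcor-/-Dnmt3a-/- against WT, these were -0.55 to 0.29 for Mcm2, -0.97 to 0.29 for Mcm3, -0.61 to 0.30 for Mcm4, -0.69 to 0.18 for Mcm5, -0.98 to 0.32 for Mcm6, -0.13 to 0.24 for Pcna, -0.86 to 0.57 for Gins1, -1.22 to 0.21 for Gins2, -0.56 to 0.44 for Ccnb1, -0.41 to 0.19 for Aurka and -0.94 to 0.072 for Bub1. In MEP Bcor-/-Dnmt3a-/- against WT, they were -0.17 to 0.022 for Mcm3, -0.33 to 0.12 for Mcm4, -0.15 to 0.35 for Pcna, -0.028 to 0.15 for Gins1, -0.35 to 0.82 for Ccnb1, -0.37 to 0.66 for Aurka and -0.58 to 0.24 for Bub1. In LSK Bcor-/- against WT, they were -0.10 to 0.014 for Mcm2, -0.010 to 0.26 for Mcm5, -0.071 to 0.053 for Mcm7 and -0.031 to 0.044 for Gins1. With all libraries, none of these genes was called in the comparison it is named under, and the cause was not tested.

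By quantile normalization, Pcna in Bcor-/-Dnmt3a-/- LSK was at -0.095, and in Bcor-/- LSK Mcm5 was at -0.023, Mcm7 at -0.18, Gins1 at -0.058 and Gins2 at -0.0016. By median centring Pcna was at -0.040 in Bcor-/-Dnmt3a-/- LSK, and in MEP Pcna was at -0.054, Gins1 at -0.096 and Aurka at -0.012. With 2 libraries in a group and no read counts, differences under the spread between libraries were not detectable.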
